A study of Mus musculus with 53 samples.

Results

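High-fat feeding was compared with chow in the arcuate nucleus (ARC) of obese male Nnat+/-p mice. Nnat encodes neuronatin and is an imprinted gene expressed from the paternal copy, and Nnat+/-p mice inherited a null paternal allele, so mice on both diets carried the same deletion. The comparison used 8 of the 53 samples of the series, chosen from the labels for genotype, nucleus, diet and body weight. Libraries 50, 51, 52 and 53 came from mice on a 45% high-fat diet (HFD), and libraries 36, 37, 41 and 42 from mice on chow that had become obese. Values below are given in that order of libraries. All mice were C57BL/6 males aged between 13 and 14 weeks, and each library held the total RNA of a laser-captured ARC. Each library mixes the RNA of all captured cells, so the comparison does not separate neurons of the ARC from glia or vessels.

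The HFD mice weighed 43.1, 42.9, 38.2 and 42.5 g and the obese chow mice 38.8, 46.5, 41.66 and 41.17 g. The means were 41.7 g ± 2.33 (SD, n = 4) and 42.0 g ± 3.23 (SD, n = 4), a difference of -0.358 g, and -0.766 g without library 51. The samples were chosen for like weights, so these values are a description. The weight on the label of library 51 belongs to a wild-type mouse in the labels of the paraventricular nucleus (PVN), and the 43.9 g of wild-type ARC library 44 belongs there to a Nnat+/-p mouse, so values without library 51 are given for the counts of calls and for the genes whose call it changes or that lead their class.

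Nnat itself was low in all 8 libraries. It stood at 1.05, 3.95, 3.06 and 1.67 CPM (counts scaled to library size) on HFD and at 1.13, 4.02, 4.58 and 2.40 CPM on chow, against 232 to 480 CPM in the 8 wild-type (WT) ARC libraries. Library 51 thus carried the Nnat level of its labelled genotype. Nnat was not called between the diets (log2 fold change -0.37 ± 0.41 SE, adjusted p = 0.859). ARC markers were present in every library, with Pomc at 60.4 CPM or more.

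Total counts ran from 2838121 to 5948222 on HFD and from 4447194 to 6676070 on obese chow. Library 50 lay far from all others on the third principal component of log2 CPM, and library 39 of the non-obese group on the second. No pair of libraries within the 2 groups was a duplicate, since their counts differed by 10.1 to 99.3 chi-square units per gene. CPM, the usual normalised counts of a library, are scaled by the trimmed mean of M values (TMM), fold changes are HFD over obese chow on the log2 scale with the standard error (SE), and a gene is called at an adjusted p under 0.25 in the edgeR quasi-likelihood test. For scale, non-obese Nnat+/-p mice on chow (4 libraries, 27.4 to 34.3 g, of which libraries 39 and 40 carry the same labelled weight and may come from 1 mouse) and WT mice on HFD (6 libraries, 37.4 to 43.9 g) and chow (2 libraries used) are given where they bear on a gene.

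The ARC lies at the base of the hypothalamus beside the third ventricle, where blood-borne signals of energy stores reach it. Its neurons that make agouti-related peptide (Agrp) and neuropeptide Y (Npy) drive feeding, and those that make pro-opiomelanocortin (Pomc) and cocaine- and amphetamine-regulated transcript (Cartpt) restrain it. Fat-rich feeding of rodents is known for glial activation in this nucleus. Because the libraries were made from total RNA, they also hold small nuclear, small nucleolar and ribosomal RNAs that polyA libraries lack. In tissue RNA, fewer cells of a type and less RNA per cell cannot be told apart.

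Most of the genes that edgeR called between HFD and obese chow were small and structural RNAs. Of 15753 genes tested, 200 were called (1.27% of genes), 167 higher (1.06%) and 33 lower (0.209%) on HFD. Small and structural RNAs (small nucleolar, small Cajal body, small nuclear, ribosomal, mitochondrial transfer, miscellaneous and micro RNA genes and a ribozyme) made up 112 of the higher genes. Among protein-coding genes of the nuclear genome, 42 rose and 24 fell of 13791 tested (0.479%). At an unadjusted p under 0.05, 763 genes were higher (4.84%) and 638 lower (4.05%). The make-up depended on the tool: DESeq2 called 358 genes, 152 of them small and structural and 167 protein-coding, and limma voom called 40, 10 and 29 of them.

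These counts depended on a few libraries. At an adjusted p under 0.05, 18 genes were called, 15 of them small and structural RNAs. Leaving out library 51 left 66 calls, of which 46 were small and structural and 18 protein-coding. Without library 50, 13 calls were left, without library 41, 16, and without library 42, 17, whereas 544 were called without library 53. With libraries 39 and 40 of the non-obese group summed as 1 mouse, 373 were called. Without library 50 the protein-coding calls were Efna5, Sardh, Osbp2 and Kif21a. When protein-coding genes of the nuclear genome were tested on their own, 5 were called in place of 66: Osbp2 and Efna5 higher, and Sardh, Alx4 and Gm47791 lower. The other protein-coding calls below are thus calls at an adjusted p under 0.25 in the table of all genes and not in the table of coding genes alone.

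**Figure D1:**
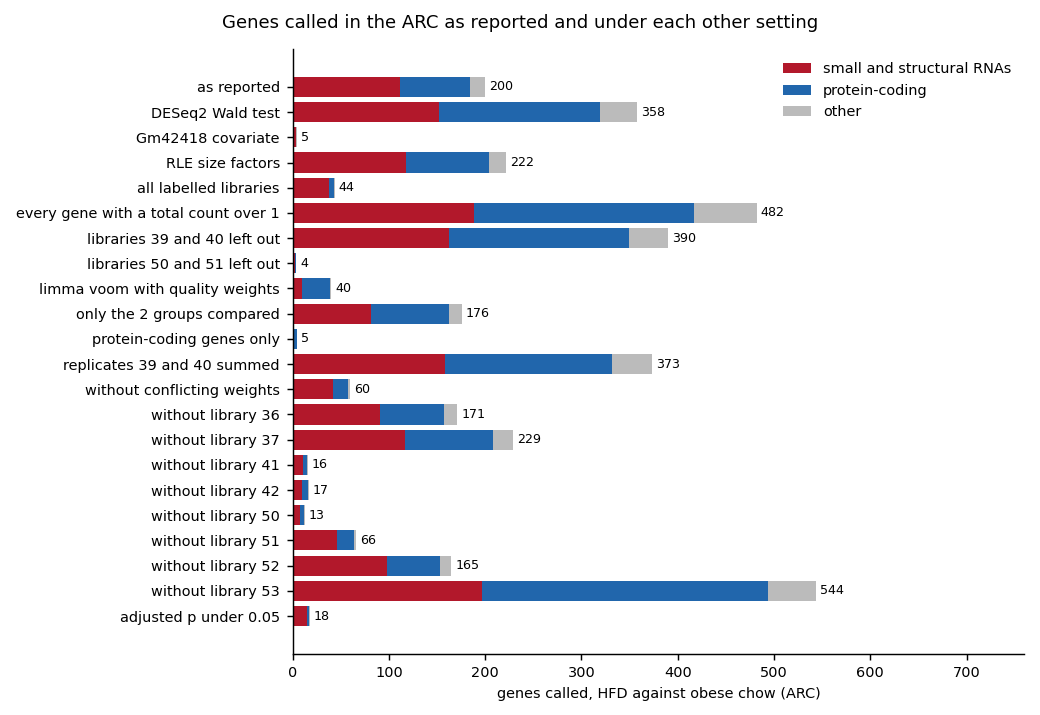
Number of genes called between HFD and obese chow in the ARC (x axis) as reported and under each other setting (y axis), with bars split into small and structural RNAs, protein-coding genes and other genes. The count as reported is 200, and it runs from 4 without libraries 50 and 51 to 544 without library 53.

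The small and structural RNAs moved together in 1 direction. Of 344 tested, 112 were called and all 112 were higher on HFD (32.6%, against 1.06% of all genes), 330 had a fold change above 0, and their median log2 fold change was 2.58 against -0.04 over all genes. Small nuclear RNAs, which build the spliceosome, had 35 called of 89 with a median of 3.48. Small nucleolar RNAs, which guide modification of ribosomal RNA, had 37 called of 118 with a median of 2.39, and 4 of 13 small Cajal body RNAs were called. Ribosomal RNA genes, mostly 5S copies, had 23 called of 68, and 4 of 21 microRNA genes were called. The mitochondrial transfer RNAs had 4 called of 11.

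The 4 HFD libraries were not alike in these RNAs. Among the 112 called, library 50 was the highest of the HFD libraries for 92 and library 53 the lowest for 106. Small and structural RNAs took 6.79, 6.28, 6.72 and 3.90% of all counts on HFD and 4.35, 4.97, 3.13 and 2.12% on obese chow. Library 53 therefore overlapped with the chow libraries, and the other HFD libraries stood above them. The class-wide share of small nucleolar and Cajal body RNAs did not overlap, at 0.184, 0.133, 0.122 and 0.0636% against 0.0469, 0.0534, 0.0286 and 0.0178%.

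Sequences of small nucleolar and small nuclear RNAs that the values below turn on follow, 5′ to 3′, from the GENCODE transcripts of GRCm38. Snord17 is shown because it rose in both nuclei, and capitals mark its C box and D box, the motifs that define box C/D small nucleolar RNAs.
Snord17 (chr2:144265979-144266216, minus strand): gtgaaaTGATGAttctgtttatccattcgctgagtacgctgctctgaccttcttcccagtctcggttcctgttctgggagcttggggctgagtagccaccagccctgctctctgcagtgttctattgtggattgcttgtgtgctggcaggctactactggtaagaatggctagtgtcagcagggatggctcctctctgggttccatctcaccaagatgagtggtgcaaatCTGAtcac
Snora30 and Snora73b represent the other family, box H/ACA, and capitals mark the ACA near the 3′ end.
Snora30 (chr7:127527874-127528003, plus strand): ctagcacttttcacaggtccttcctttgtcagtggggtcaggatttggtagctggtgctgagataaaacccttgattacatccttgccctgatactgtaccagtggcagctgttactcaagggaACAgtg
Snora73b (chr4:132352322-132352526, minus strand): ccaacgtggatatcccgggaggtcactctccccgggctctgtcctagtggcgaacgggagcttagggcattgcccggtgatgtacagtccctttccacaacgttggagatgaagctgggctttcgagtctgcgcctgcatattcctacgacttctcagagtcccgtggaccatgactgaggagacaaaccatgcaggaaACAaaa

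Gm24265 and Gm24407 are annotated small nuclear RNAs with the U4 sequence, a core part of the spliceosome, and lie side by side on chromosome 5. They differ at 2 positions, G88A and C99A, counted from 1 at the 5′ end with the base of Gm24265 first, and capitals mark them.
Gm24265 (chr5:115489459-115489599, plus strand): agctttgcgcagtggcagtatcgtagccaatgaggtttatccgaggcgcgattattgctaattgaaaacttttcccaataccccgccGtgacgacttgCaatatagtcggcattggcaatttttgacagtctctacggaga
Gm24407 (chr5:115490254-115490394, plus strand): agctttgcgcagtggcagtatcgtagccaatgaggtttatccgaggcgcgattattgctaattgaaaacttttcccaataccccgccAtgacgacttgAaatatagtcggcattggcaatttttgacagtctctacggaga
Reads that miss both positions fit either copy, so the split of counts between them is uncertain, as it is for the many copies of 5S and U6 RNA.

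By motif, the small nucleolar RNAs were called in both families. With TGATGA within 20 bases of the 5′ end and CTGA within 20 bases of the 3′ end on the RNA's own strand, 61 were tested and 23 called (37.7%, median log2 fold change 2.35). Without these motifs and with ACA in the last 10 bases, 41 were tested and 13 called (31.7%, median 2.47). With neither, 16 were tested and 1 was called.

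Snord17 stood at 51.9, 24.9, 30.1 and 26.3 CPM on HFD and at 11.3, 8.56, 5.89 and 5.81 CPM on obese chow (log2 fold change 2.06 ± 0.37, adjusted p = 0.0136). Every HFD library was above every chow library, and without library 51 the fold change was 2.17 (adjusted p = 0.015). Gm24265 stood at 63.9, 34.3, 40.4 and 18.3 CPM against 9.79, 4.89, 3.27 and 2.60 CPM (2.88 ± 0.46, adjusted p = 0.00256), also without overlap. Its neighbour Gm24407 gave a fold change of 2.56 ± 0.49 (adjusted p = 0.0244). Snora73b stood at 37.5, 22.5, 19.9 and 7.78 CPM against 3.12, 4.37, 4.58 and 1.60 CPM (2.66 ± 0.53, adjusted p = 0.0267). Snora30 was near 0 on chow, at 0.142, 0.873, 0.218 and 0 CPM, and at 15.2, 3.16, 4.15 and 1.67 CPM on HFD (4.17 ± 0.82, adjusted p = 0.0267). Without library 50, the calls of Snora30 (3.16, adjusted p = 0.325) and Snora73b (2.27, adjusted p = 0.259) were lost.

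Rpph1, Scarna2 and Rnu11 also rose. Rpph1, the RNA part of ribonuclease P, stood at 468, 540, 451 and 308 CPM on HFD and at 291, 161, 160 and 89.9 CPM on obese chow (1.33 ± 0.27, adjusted p = 0.0389). Scarna2, a small Cajal body RNA that guides modification of spliceosomal RNA, stood at 155, 127, 137 and 63.8 CPM against 62.0, 49.1, 43.4 and 31.8 CPM (1.37 ± 0.29, adjusted p = 0.0434). Both ranges were separate, by a narrow margin in library 53. Rnu11, the U11 RNA of the minor spliceosome, rested more on 1 library, with 86.2, 22.1, 14.4 and 10.6 CPM against 4.11, 4.54, 1.31 and 1.40 CPM (3.48 ± 0.70, adjusted p = 0.0291). Without library 50 the fold change of Rnu11 was 2.38 (adjusted p = 0.443). Scarna2 also lost its call without library 50 (adjusted p = 0.314), and Rpph1 kept its call (adjusted p = 0.192). The small nuclear RNA copies Gm25257, Gm22984 and Gm25414, rose by log2 fold changes of 4.44, 4.88 and 3.56.

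Rny1 and Rny3 encode Y RNAs, which bind the Ro protein. They lie near each other on chromosome 6 on opposite strands, and their longest shared run, of 12 bases, is in capitals.
Rny1 (chr6:47788069-47788180, minus strand): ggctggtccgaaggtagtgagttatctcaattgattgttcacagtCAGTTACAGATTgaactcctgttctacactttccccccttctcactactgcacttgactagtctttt
Rny3 (chr6:47781624-47781725, plus strand): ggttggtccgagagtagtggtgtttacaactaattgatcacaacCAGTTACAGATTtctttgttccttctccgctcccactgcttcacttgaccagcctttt
Rny3 stood at 2690, 1240, 978 and 376 CPM on HFD and at 309, 427, 76.8 and 94.9 CPM on obese chow (2.54 ± 0.60, adjusted p = 0.0787). Library 53 lay below chow library 37, so the ranges met. Rny1 gave 2.83 ± 0.64 (adjusted p = 0.0649), with 642, 277, 203 and 91.0 CPM against 56.9, 78.9, 18.5 and 14.2 CPM and no overlap. Snora21, from an intron of the ribosomal protein gene Rpl23, rose by 2.53 ± 0.59 (adjusted p = 0.0787), and Snord116l12, a copy in the imprinted Snord116 cluster, by 1.90 ± 0.49 (adjusted p = 0.129, and 0.287 without library 51). Without library 50, Rny1 (adjusted p = 0.521), Rny3 (0.584), Snora21 (0.443) and Snord116l12 (0.637) lost their calls.

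**Figure D2:**
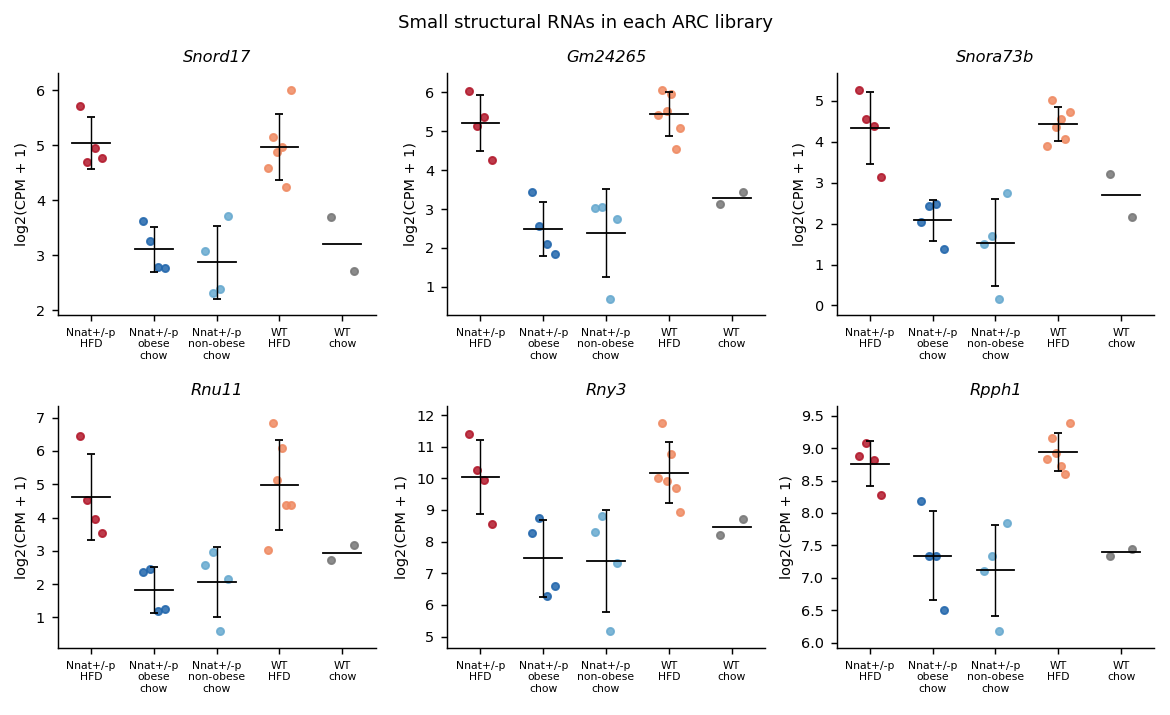
Log2(CPM + 1) of 6 small structural RNAs (y axis) in each ARC library by genotype and diet (x axis), with points for libraries, a line at the mean and bars of 1 SD for groups over 2. The 4 Nnat+/-p HFD libraries lie above the 4 obese chow libraries for Snord17 (24.9 to 51.9 CPM against 5.81 to 11.3 CPM), and the WT HFD libraries reach the same levels.

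Reads of the large ribosomal RNA varied along with these RNAs. Gm42418 overlaps a ribosomal RNA repeat on chromosome 17 and took 22.7, 21.8, 10.2 and 4.46% of all counts on HFD against 5.61, 7.20, 1.37 and 1.52% on obese chow (2.10 ± 0.60, adjusted p = 0.188). Libraries 50 and 51 stood apart, and library 53 lay within the chow range. CT010467.1, a ribosomal RNA annotation at the same locus (chr17:39846353-39848827), had the smallest p of all genes, at 79.4, 88.4, 69.9 and 62.4 CPM against 18.6, 24.6, 8.73 and 14.6 CPM (2.16 ± 0.29, adjusted p = 0.000338). It did not overlap, and its call held under each of the 20 other settings in which it was tested. The 5.8S copy n-R5-8s1 (1.52 ± 0.46, adjusted p = 0.218) and the ribosomal copy Gm24601 (1.55 ± 0.42, adjusted p = 0.142) were also called. Without library 51, Gm42418 (adjusted p = 0.48), n-R5-8s1 (0.508) and Gm24601 (0.355) lost their calls.

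Some other genes, most of them coding, followed Gm42418 library by library. Lars2, the mitochondrial leucyl-tRNA synthetase, stood at 2610, 2740, 1330 and 593 CPM on HFD and at 614, 855, 197 and 237 CPM on obese chow (1.93 ± 0.55, adjusted p = 0.188). The antisense gene Gm15564 (2.22 ± 0.67), Cdr2 (1.99 ± 0.60), the adhesion molecule Mcam (2.22 ± 0.66) and Cadps2, a priming factor of dense-core vesicles (1.30 ± 0.40), had adjusted p of 0.218, 0.221, 0.213 and 0.236. Without library 51 none of these 5 was called, with adjusted p of 0.48 for Lars2, 0.509 for Gm15564, 0.536 for Cdr2, 0.542 for Mcam and 0.533 for Cadps2. With the log2 CPM of Gm42418 as a covariate, the fold changes were 0.01 for Lars2, -0.27 for Gm15564, -0.23 for Cdr2, -0.19 for Mcam and 0.08 for Cadps2. Under that covariate, Snord17 kept a fold change of 1.98 (adjusted p = 0.171), CT010467.1 one of 1.69 (adjusted p = 0.0129) and Gm24265 one of 1.77 (adjusted p = 0.218), while 5 genes in all were called. Gm42418 was itself called higher on HFD, so this covariate cannot separate ribosomal carry-over from diet. The part of carry-over in the calls was not tested.

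**Figure D3:**
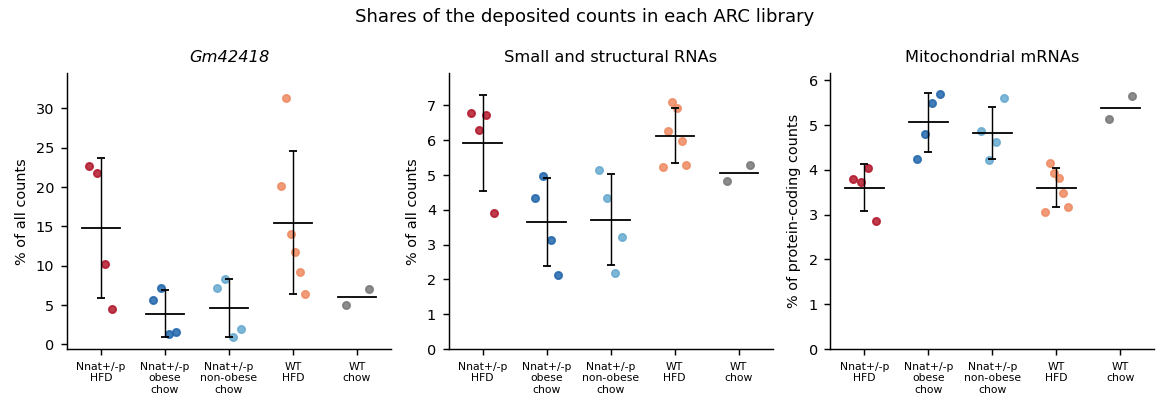
Share of all counts taken by Gm42418 and by small and structural RNAs, and share of protein-coding counts taken by mitochondrial mRNAs (y axes, %), in each ARC library by genotype and diet (x axis). Points are libraries, lines means and bars 1 SD for groups over 2. Mitochondrial mRNAs took 2.86 to 4.05% of coding counts in Nnat+/-p HFD libraries and 4.25 to 5.70% in obese chow libraries, and the other shares were higher on HFD with overlap.

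Mitochondrial mRNAs were lower on HFD. The mitochondrial genome encodes subunits of the respiratory chain, and 6 of its 8 mRNAs tested were called lower, with a median log2 fold change of -0.58 over the 8. The others were not called, with mt-Nd6 at -0.51 (adjusted p = 0.535) and mt-Nd3 above 0 at 0.93 (adjusted p = 0.891). mt-Cytb, the core subunit of complex III, stood at 4500, 4210, 4650 and 3400 CPM on HFD and at 5650, 6040, 6690 and 7690 CPM on obese chow (-0.64 ± 0.16, adjusted p = 0.111). mt-Co1, the catalytic subunit of complex IV, stood at 2180, 2320, 2750 and 2300 CPM against 3120, 3210, 3630 and 4210 CPM (-0.57 ± 0.15, adjusted p = 0.129). All 6 had HFD libraries wholly below the chow libraries. The complex I subunits mt-Nd1, mt-Nd2, mt-Nd4 and mt-Nd5 fell by 0.59, 0.64, 0.61 and 0.54 on the log2 scale, with adjusted p of 0.142, 0.166, 0.110 and 0.150.

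As a share of coding counts, mitochondrial mRNAs were 3.80, 3.72, 4.05 and 2.86% on HFD and 4.25, 4.81, 5.49 and 5.70% on obese chow. WT libraries gave 3.07 to 4.16% on HFD and 5.13 and 5.66% on chow, and non-obese Nnat+/-p libraries on chow gave 4.22 to 5.60%. Without library 51 the fold changes were nearly the same, -0.64 for mt-Cytb and -0.56 for mt-Co1, and the adjusted p rose to 0.256 and 0.308. The other mitochondrial mRNAs were not called either then, with adjusted p of 0.253 to 0.331 for mt-Nd4, mt-Nd2, mt-Nd1 and mt-Nd5. The ribosomal RNAs of the mitochondrion were not called, with mt-Rnr1 at -0.34 ± 0.21 and mt-Rnr2 at -0.20 ± 0.23. Mitochondrial transfer RNAs went the other way: mt-Tm, mt-Tf, mt-Tv and mt-Tp rose by 3.21, 4.56, 3.01 and 2.51, with library 50 highest for each, and mt-Tp lost its call without library 51 (adjusted p = 0.392). Without library 50 none of these transfer RNAs was called (adjusted p = 0.443, 0.521, 0.721 and 0.758). The mitochondrial mRNAs were not called then either (adjusted p = 0.342 for mt-Cytb to 0.584 for mt-Nd1). For the respiratory chain subunits of the nuclear genome, 78 were tested and none was called by edgeR, 8 were higher and none lower at an unadjusted p under 0.05, and DESeq2 called 1, Uqcrh.

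The ARC peptide mRNAs Sst and Cartpt rose on HFD. Sst, which encodes somatostatin, an inhibitory peptide of hypothalamic neurons that restrains growth hormone, stood at 178, 140, 141 and 95.5 CPM on HFD and at 81.7, 58.3, 54.5 and 55.9 CPM on obese chow (1.14 ± 0.28, adjusted p = 0.110). Cartpt stood at 124, 72.2, 105 and 49.9 CPM against 41.0, 39.8, 66.3 and 43.9 CPM (0.88 ± 0.26, adjusted p = 0.195). The groups did not overlap for Sst, and for Cartpt library 53 lay within the chow range. DESeq2 called both, and limma voom called Cartpt but not Sst. Without library 51 the values were 1.14 (adjusted p = 0.221) for Sst and 0.96 (adjusted p = 0.266) for Cartpt, and without library 50 they were 1.00 (adjusted p = 0.521) and 0.67 (adjusted p = 0.746). Non-obese Nnat+/-p mice had 35.4 to 71.5 CPM of Sst and 20.8 to 54.9 CPM of Cartpt. Cartpt was at 82.9 to 155 CPM in WT mice on HFD and at 30.0 and 31.6 CPM in WT mice on chow, and Sst at 50.8 to 215 CPM and at 41.5 and 49.6 CPM.

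The best known feeding peptides were not called. Npy stood at 50.0, 35.9, 21.4 and 11.3 CPM on HFD and at 13.5, 7.68, 20.1 and 13.6 CPM on obese chow (1.10 ± 0.50, adjusted p = 0.526). Agrp stood at 15.7, 9.47, 7.43 and 4.31 CPM against 5.82, 0.873, 4.15 and 5.41 CPM (1.17 ± 0.76, adjusted p = 0.704), and Pomc at 201, 118, 163 and 103 CPM against 96.5, 116, 60.4 and 88.1 CPM (0.69 ± 0.55, adjusted p = 0.768). The ranges overlapped for all of them, with library 50 highest and library 53 lowest among the HFD libraries. The spread between libraries was too wide to show a difference of these sizes. Tac2, which encodes neurokinin B, missed the threshold at 1.91 ± 0.61 (adjusted p = 0.269) and was called by DESeq2.

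Of the 17 ARC peptide genes tested, 2 were called higher and none lower, 7 were higher and 1 lower at an unadjusted p under 0.05, and the median log2 fold change was 0.87. The others past that level were Ghrh (1.30), Gal (1.24) and Th (0.87), the enzyme that marks dopamine neurons of the ARC, besides Tac2, Npy, Sst and Cartpt. Nmu was lower, at 0, 0, 0 and 0.139 CPM on HFD and at 0.567, 0, 2.84 and 0.801 CPM on chow, which is too few counts to read. Summed over the list, the level was 807, 582, 664 and 421 CPM on HFD and 408, 380, 368 and 332 CPM on obese chow. Every HFD library was above every chow library, by a narrow margin in library 53. The sum includes Sst and Cartpt, the 2 genes called.

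Sst and Cartpt share a promoter motif that the choice of genes did not use. TGACGTCA, the palindrome bound by cAMP-response element binding protein, reads the same on both strands and occurs in 588 of 32851 RefSeq promoters of 300 bases (1.79%), from 250 bases before to 50 after the start. Among the 17 ARC peptide genes, 15 had a promoter in the table and 3 held the motif (Cartpt, Sst and Th). It is in capitals below, 48 bases before the start for Sst and 112 for Cartpt. A match is only a description of the sequence.
Sst promoter (GRCm38.p6, chr16:23890795-23891094, minus strand): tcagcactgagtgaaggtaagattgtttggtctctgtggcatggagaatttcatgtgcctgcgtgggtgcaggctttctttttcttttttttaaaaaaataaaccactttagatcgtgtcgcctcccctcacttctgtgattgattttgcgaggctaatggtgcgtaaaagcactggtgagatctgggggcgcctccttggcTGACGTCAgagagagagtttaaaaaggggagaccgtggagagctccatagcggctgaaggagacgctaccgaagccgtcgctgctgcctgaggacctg
Cartpt promoter (GRCm38.p6, chr13:99900634-99900933, minus strand): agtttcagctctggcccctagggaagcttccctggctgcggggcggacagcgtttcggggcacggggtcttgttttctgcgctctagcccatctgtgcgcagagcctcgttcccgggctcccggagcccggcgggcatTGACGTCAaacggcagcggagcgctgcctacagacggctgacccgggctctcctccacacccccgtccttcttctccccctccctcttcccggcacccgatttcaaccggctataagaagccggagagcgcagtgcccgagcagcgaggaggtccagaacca

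Of the transcription factors of ARC neurons, Tbx3 and Otp rose. Tbx3, a T-box factor that maintains the identity of ARC peptide neurons, stood at 50.3, 40.2, 43.9 and 31.7 CPM on HFD and at 17.9, 16.1, 21.4 and 18.8 CPM on obese chow (1.16 ± 0.30, adjusted p = 0.129). Otp, a homeodomain factor of neuroendocrine neurons, stood at 70.2, 40.6, 52.9 and 30.7 CPM against 19.7, 16.8, 15.3 and 27.4 CPM (1.29 ± 0.35, adjusted p = 0.143). Neither overlapped. Without library 51, Tbx3 was at 1.18 (adjusted p = 0.256) and Otp at 1.37 (adjusted p = 0.248), and without library 50 they were at 1.06 and 1.07 (adjusted p = 0.574 and 0.721). Tbx3 was 4.56 to 18.5 CPM in non-obese Nnat+/-p mice, 31.2 to 77.8 CPM in WT mice on HFD, and 5.85 and 12.8 CPM in WT mice on chow. Of 16 factors tested, 2 were called higher and none lower, and 4 were higher at an unadjusted p under 0.05, which adds Nhlh2 (1.33) and Bsx (1.27). Their median was 0.47, and Sox14 was the member furthest below 0 by p (-1.16, adjusted p = 0.644).

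**Figure D4:**
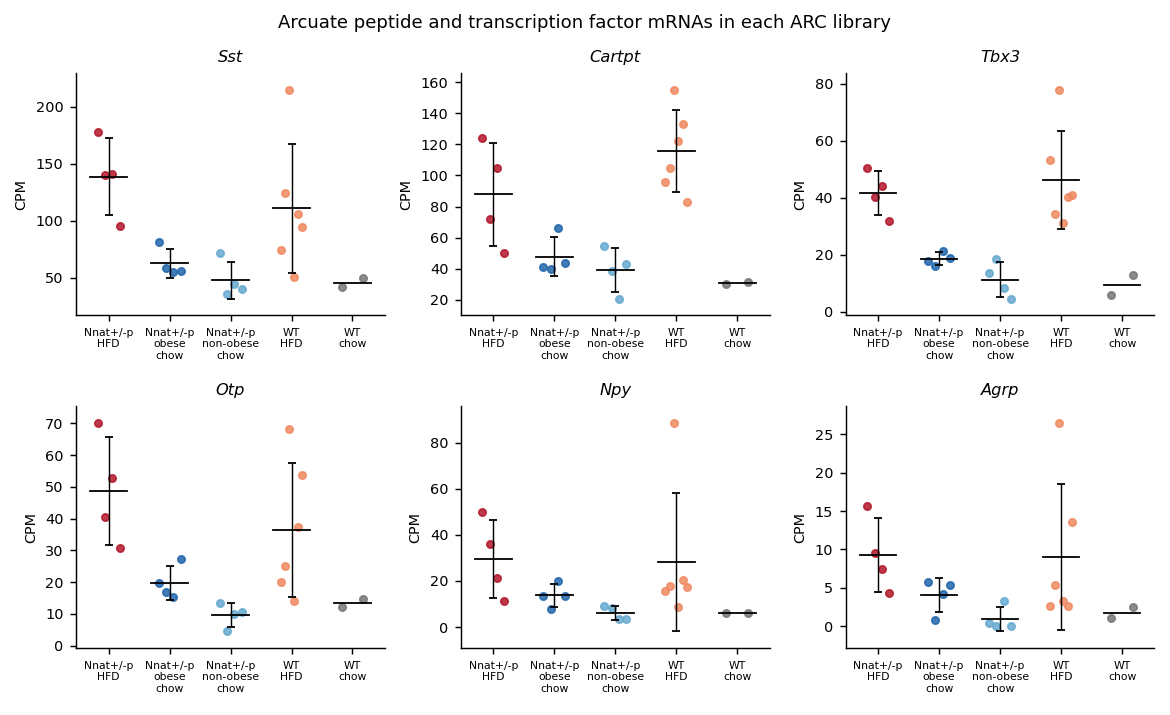
CPM of 4 peptide mRNAs (Sst, Cartpt, Npy, Agrp) and 2 transcription factor mRNAs (Tbx3, Otp) on the y axes in each ARC library by genotype and diet (x axis), with points for libraries, a line at the mean and bars of 1 SD for groups over 2. Tbx3 separates the Nnat+/-p HFD libraries (31.7 to 50.3 CPM) from the obese chow libraries (16.1 to 21.4 CPM), whereas Npy and Agrp overlap.

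Oxt, the oxytocin gene of the PVN and supraoptic nucleus, was higher on HFD at a low level. It stood at 11.0, 9.47, 12.5 and 14.5 CPM against 1.13, 0.175, 0 and 1.20 CPM (4.15 ± 1.05, adjusted p = 0.116), without overlap, and at 0 to 4.07 CPM in WT mice on HFD. Oxt stood at 220 to 988 CPM in the 7 HFD and obese chow PVN libraries of Nnat+/-p mice. Avp, its neighbour in the genome, was at 31.4, 1.18, 6.77 and 2.78 CPM against 0.851, 3.14, 0 and 3.81 CPM (adjusted p = 0.561). Among 14 markers of other hypothalamic nuclei, Oxt was the only one called, and the one furthest below 0 by p was Pmch (-0.80, adjusted p = 0.858).

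Markers of the ventromedial nucleus, which borders the ARC, varied widely. All 9 tested were below 0, with a median of -0.66, none was called by edgeR, DESeq2 or limma voom, and 1, Nptx2, was lower at an unadjusted p under 0.05 (-0.98). Their summed level was 136, 253, 234 and 483 CPM on HFD and 481, 555, 288 and 414 CPM on obese chow. Nr5a1, the factor that defines this nucleus, stood at 1.83, 14.6, 7.86 and 55.3 CPM against 35.9, 34.7, 21.2 and 23.4 CPM, and Fezf1 at 7.86, 14.2, 26.4 and 35.0 CPM against 51.2, 50.8, 22.5 and 34.9 CPM. Among the HFD libraries, the summed ventromedial level was highest in library 53 and lowest in library 50, the summed ARC peptide level was lowest in library 53 and highest in library 50, and the part of the dissected area in the peptide results was not tested. Over 18 general neuronal markers none was called and the median was -0.04, with Slc32a1, the vesicular GABA transporter, at 0.86 (unadjusted p = 0.0163) and Slc17a6, the vesicular glutamate transporter of the hypothalamus, at -0.66 (unadjusted p = 0.0622).

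No receptor or signalling gene of appetite hormones was called by edgeR. Of 33 receptors none was called by any tool, and the median was 0.07. Calcr, the calcitonin receptor that binds amylin, was higher at 0.90 and Cnr1, the cannabinoid receptor, lower at -0.69, with adjusted p of 0.457 and 0.507. Lepr, the leptin receptor, gave -1.53 ± 0.91 (adjusted p = 0.662) and rested on 1 chow library. It stood at 4.98, 3.55, 7.21 and 2.08 CPM against 37.9, 3.49, 5.89 and 2.40 CPM, and without library 36 the sign turned to 0.18. Among 27 leptin and insulin signalling genes none was called by edgeR, and the median was -0.05. Stat3, the factor activated by the leptin receptor, stood at 87.8, 77.3, 71.4 and 67.1 CPM against 57.6, 52.9, 51.9 and 46.9 CPM (0.53 ± 0.17, adjusted p = 0.274). It was called by DESeq2 and not by limma voom. Socs3, its feedback inhibitor, gave 0.62 (adjusted p = 0.826).

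Among astrocyte genes, Vim was the call. Of 14 reactive astrocyte genes, Vim, an intermediate filament of astrocytes and tanycytes, was called, at 17.8, 21.3, 26.0 and 28.1 CPM against 10.4, 10.1, 17.9 and 14.8 CPM (0.82 ± 0.25, adjusted p = 0.232, and 0.394 without library 51). Library 50 lay just below the highest chow library. Gfap, the astrocyte filament raised in gliosis, was not called, at 216, 211, 88.5 and 64.5 CPM on HFD and 171, 204, 298 and 201 CPM on obese chow (-0.60 ± 0.42, adjusted p = 0.725), and it was at 28.8 and 32.2 CPM in WT mice on chow. The 14 homeostatic astrocyte markers had none called by any tool, none at an unadjusted p under 0.05, and a median of 0.01, with Mlc1 at 0.31.

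Of 17 microglia markers, none was called by edgeR, 13 were above 0, 4 were higher and none lower at an unadjusted p under 0.05, and the median log2 fold change was 0.49. Their summed level was 312, 304, 292 and 266 CPM on HFD and 229, 233, 240 and 226 CPM on obese chow, so the groups did not overlap. Fcrls was at 20.4, 4.34, 11.4 and 10.1 CPM against 6.81, 4.71, 2.18 and 2.40 CPM (1.51 ± 0.48, adjusted p = 0.264) and was called by DESeq2, C1qa gave 0.78 (adjusted p = 0.404) and P2ry12 -0.46 (adjusted p = 0.783). Interferon and antigen presentation genes had none called of 18 by edgeR, with 4 higher and none lower at that level and a median of 0.42. H2-D1, a class I antigen-presenting molecule, was at 24.1, 31.6, 21.8 and 27.7 CPM against 11.8, 18.0, 15.3 and 18.6 CPM (0.72 ± 0.24, adjusted p = 0.292), without overlap, and was called by DESeq2. Cd74, the class II invariant chain, gave 2.09 (adjusted p = 0.431) from 4.72 to 12.0 CPM against 1.20 to 3.27 CPM. Among 12 inflammatory mediators, Tgfb1 fell and none rose.

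For oligodendrocytes, none of 14 myelin markers was called by any tool, with Myrf at 1.37 (adjusted p = 0.405), and none of 9 precursor markers. The vascular, ventricular and surface tissues likewise had no edgeR call. Of 13 endothelial markers 8 were above 0 (median 0.15), with Tie1 at -2.08 and called by DESeq2. Of 15 mural and meningeal markers 12 were above 0 (median 0.35), with Lum at -2.04. The others were tanycyte (11, 10 of them above 0, Col23a1 at 1.09), ependymal (9), choroid plexus (5, 3 of them above 0, Kl at -1.01) and pituitary (4, Pitx1 at 3.00 from 0 to 4.59 CPM). At an unadjusted p under 0.05 these 8 lists held 3 higher and 3 lower genes in all, namely the 6 just named.

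Immediate early genes are switched on in active neurons. Of 23 tested, 20 were below 0 with a median of -0.56, none was called by edgeR, 4 were lower and 1, Jund, higher (0.41) at an unadjusted p under 0.05. Egr1 stood at 5.76, 7.89, 8.52 and 21.0 CPM against 24.5, 20.3, 27.3 and 39.5 CPM (-1.32 ± 0.43, adjusted p = 0.283) and was called by DESeq2. Arc, a synaptic plasticity gene, stood at 1.57, 1.97, 1.97 and 4.72 CPM against 8.94, 4.54, 4.36 and 13.8 CPM (-1.57 ± 0.58, adjusted p = 0.364). Library 53 was the highest HFD library for both and overlapped with chow. Fosb gave -2.46 and Nr4a3 -0.86. The summed level of the list was 198 to 217 CPM on HFD and 222 to 274 CPM on obese chow, and in the PVN of these genotypes the median of the same genes was -0.60 with 5 lower at that level.

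Metabolic and secretory lists held no calls by edgeR, DESeq2 or limma voom, and each is given with its median. ER chaperones and stress genes had 0.08 over 26 (Atf4 0.35), the signal peptidase complex 0.11 over 5 (Sec11a 0.42), ER calcium handling -0.16 over 14 with 3 lower at an unadjusted p under 0.05 (Ryr3, a calcium release channel, -0.74, adjusted p = 0.314), and granins and prohormone processing 0.08 over 14. Cholesterol synthesis had -0.24 over 24 (Sqle, squalene epoxidase, -0.50, the 1 gene lower at that level), fatty acid synthesis -0.14 over 15 (Acly 0.18, Acacb -0.69), fatty acid oxidation, ketone and PPAR genes 0.09 over 30 (Plin2 1.48), and uncoupling proteins 0.27 over 4. Glucose uptake and glycolysis had 0.06 over 23 with 2 higher and 1 lower (Gapdh 1.47, Pfkfb3 -0.56), clock genes -0.05 over 19 with 1 each way (Dbp 0.53, Per3 -0.60), and glucocorticoid targets -0.05 over 15 with none (Klf9 -0.61). Heat shock chaperones had -0.07 over 23 with none.

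Channel and structural lists added few calls. Gabre, the epsilon subunit of the GABA-A receptor, rose, at 81.0, 49.3, 84.1 and 29.3 CPM against 25.7, 18.2, 32.1 and 37.3 CPM (1.11 ± 0.29, adjusted p = 0.129), with library 53 inside the chow range. It was the 1 call among 16 GABA receptor subunits, whose median was -0.10. For 26 glutamate receptor subunits (median -0.10), 65 potassium channel genes (-0.12, 5 lower and none higher at an unadjusted p under 0.05) and 39 collagens (-0.34) edgeR called none, and DESeq2 called 1 lower in each (Gria2, Kcnk1 and Col2a1). Cytosolic ribosomal proteins had 1 call of 76, Rps25 (1.81 ± 0.53, adjusted p = 0.200, and 0.436 without library 51), with 15 higher and 1 lower at that level and a median of 0.28. Tpt1, another abundant short mRNA of the translation machinery, rose by 1.37 ± 0.40 (adjusted p = 0.193, and 0.508 without library 51), and Snora31 lies within it. Among 14 nuclear and structural noncoding RNAs Rpph1 and Gm42418 were the calls, and Snhg14, the host of the Snord116 cluster, gave -0.45 (adjusted p = 0.429).

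Among imprinted genes, 1 of 38 was called, 5 were higher and none lower at an unadjusted p under 0.05, and the median was 0.04. The call was Dlk1, a paternally expressed membrane protein, at 171, 158, 203 and 111 CPM against 107, 72.6, 105 and 92.9 CPM (0.77 ± 0.23, adjusted p = 0.221, and 0.413 without library 51), without overlap. Inpp5f was the member furthest below 0 by p (-0.43, adjusted p = 0.561).

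Coding genes outside the lists also rose. Efna5, an ephrin ligand of Eph receptors (chr17:62604184-62881317), stood at 22.3, 32.7, 28.8 and 18.5 CPM on HFD and at 9.65, 13.1, 8.51 and 13.2 CPM on obese chow (1.19 ± 0.26, adjusted p = 0.0528). It did not overlap, kept its call without library 51 (1.06, adjusted p = 0.188) and without library 50 (1.25, adjusted p = 0.116), and was called when coding genes were tested alone. Rab3b, a synaptic vesicle GTPase, stood at 54.5, 28.0, 41.5 and 26.1 CPM against 15.6, 22.5, 17.5 and 13.2 CPM (1.12 ± 0.28, adjusted p = 0.111), and 1.23 (adjusted p = 0.147) without library 51. Igsf1, a membrane glycoprotein of the thyroid axis, stood at 81.5, 72.2, 81.0 and 74.3 CPM against 48.4, 46.6, 64.4 and 47.7 CPM (0.58 ± 0.16, adjusted p = 0.151, and 0.266 without library 51).

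Gpr101, an orphan receptor of the hypothalamus, rose by 0.77 ± 0.22 (adjusted p = 0.188) with library 53 at 45.2 CPM inside the chow range, the zinc finger gene Cxxc5 by 1.08 ± 0.29 (adjusted p = 0.142), and Dele1, which relays mitochondrial stress, by 1.30 ± 0.34 (adjusted p = 0.129). Without library 51, Gpr101 (adjusted p = 0.434) and Cxxc5 (0.255) were not called and Dele1 was (0.246). Chsy3, a chondroitin sulfate synthase, rose by 2.57 ± 0.65 (adjusted p = 0.112), at 18.1, 13.0, 2.84 and 2.92 CPM against 1.84, 1.92, 1.75 and 0.401 CPM. Its level came from libraries 50 and 51, non-obese chow mice had 4.03 to 7.94 CPM, and without library 51 its adjusted p was 0.281.

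Some called genes came from single libraries. Osbp2, an oxysterol-binding protein (chr11:3703731-3863903), stood at 9.43, 9.08, 1820 and 18.9 CPM on HFD and at 9.79 to 19.6 CPM on chow, so its fold change of 5.10 ± 1.00 (adjusted p = 0.0267) came from library 52, and it was -0.09 without that library. Its PVN level was 721 CPM in obese chow library 20 and 128 CPM in HFD library 31. Kif21a, a kinesin, stood at 168, 5990, 237 and 236 CPM against 196 to 316 CPM, and without library 51 its fold change was -0.27. The intergenic RNA Gm30806 was counted in library 51 alone, at 160 CPM. Kif21a reached 2490 CPM and Gm30806 68.1 CPM in a WT chow library as well.

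The leading falls were of genes with a wide spread on chow. Sardh, the mitochondrial sarcosine dehydrogenase (chr2:27188393-27248337), stood at 8.38, 2.37, 6.77 and 6.25 CPM on HFD and at 7.09, 36.7, 106 and 55.1 CPM on obese chow (-3.06 ± 0.52, adjusted p = 0.00773), and it was -2.84 without library 51 (adjusted p = 0.0459). Library 36 was as low as the HFD libraries. Gm16638, annotated antisense to Tmc3 (chr7:83597048-83631880), stood at 0, 0.789, 2.84 and 1.53 CPM against 4.11, 44.9, 116 and 82.7 CPM (-5.44 ± 0.80, adjusted p = 0.00118), and it was -5.32 without library 51 (adjusted p = 0.00637). As the strand setting of the counting was not given, its reads cannot be told apart from those of Tmc3.

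Alx4, a homeodomain factor, stood at 0.262, 0, 0.874 and 1.39 CPM on HFD and at 2.13, 4.89, 35.8 and 8.61 CPM on obese chow (-4.07 ± 0.89, adjusted p = 0.0555), and Gm47791 at 0, 0, 0.218 and 0 CPM against 0.284, 1.75, 15.7 and 8.61 CPM (-6.37 ± 1.39, adjusted p = 0.0555). Library 41 was the highest chow library for both, as for Sardh and Gm16638. Fam83d was counted on HFD in library 51 alone, at 1.58 CPM, against 0.142, 4.71, 20.1 and 6.41 CPM on chow (-4.80 ± 1.27, adjusted p = 0.135). The olfactory receptor gene Olfr411 had no count in any of the 4 HFD libraries and 0, 8.73, 3.71 and 10.4 CPM on chow, which makes it at least 32.8-fold lower, taking 3 counts over the HFD group as the floor. Tgfb1, a growth factor made by glia among others, stood at 0.786, 3.16, 1.75 and 1.25 CPM against 3.55, 3.84, 12.0 and 22.2 CPM (-2.64 ± 0.76, adjusted p = 0.188). Without library 51 neither Olfr411 nor Tgfb1 was called (adjusted p = 0.266 for both).

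Low levels of these genes were not limited to HFD in Nnat+/-p mice. Library 43, of a non-obese Nnat+/-p mouse on chow (27.4 g), had 8.05 CPM of Sardh, 4.70 CPM of Gm16638, 0.671 CPM of Alx4, 0.403 CPM of Fam83d and 1.34 CPM of Tgfb1, and no count of Gm47791 or Olfr411. The other 3 non-obese libraries had 22.5 to 41.5 CPM of Sardh and 55.8 to 84.1 CPM of Gm16638. WT mice, which are other animals, had low levels on HFD. Sardh stood at 3.25 to 6.57 CPM in the 6 WT HFD libraries and at 62.2 and 23.5 CPM on WT chow, Gm16638 at 3.14 to 8.12 CPM and at 28.6 to 86.4 CPM, and Alx4 at 0.0764 to 1.51 CPM and at 3.51 and 16.2 CPM. Of the 33 genes called lower, 16 (48.5%) had all WT HFD libraries below both WT chow libraries, against 7.38% of all genes. Of the 112 called small and structural RNAs, 67 (59.8%) had all WT HFD libraries above both WT chow libraries, and of the 42 called coding genes higher on HFD 17 (40.5%) had, against 6.76% of all genes. For these genes the WT HFD libraries stood on the side of WT chow given by the sign of the Nnat+/-p fold change. Not all were free of overlap in Nnat+/-p mice. Of the 112 small and structural RNAs, 48 were, against 2.13% of all genes in this direction. The calls rest on those Nnat+/-p libraries, so nothing is read from this count. The labels give no date or order of preparation, so diet and any shared handling of the HFD libraries cannot be told apart.

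**Figure D5:**
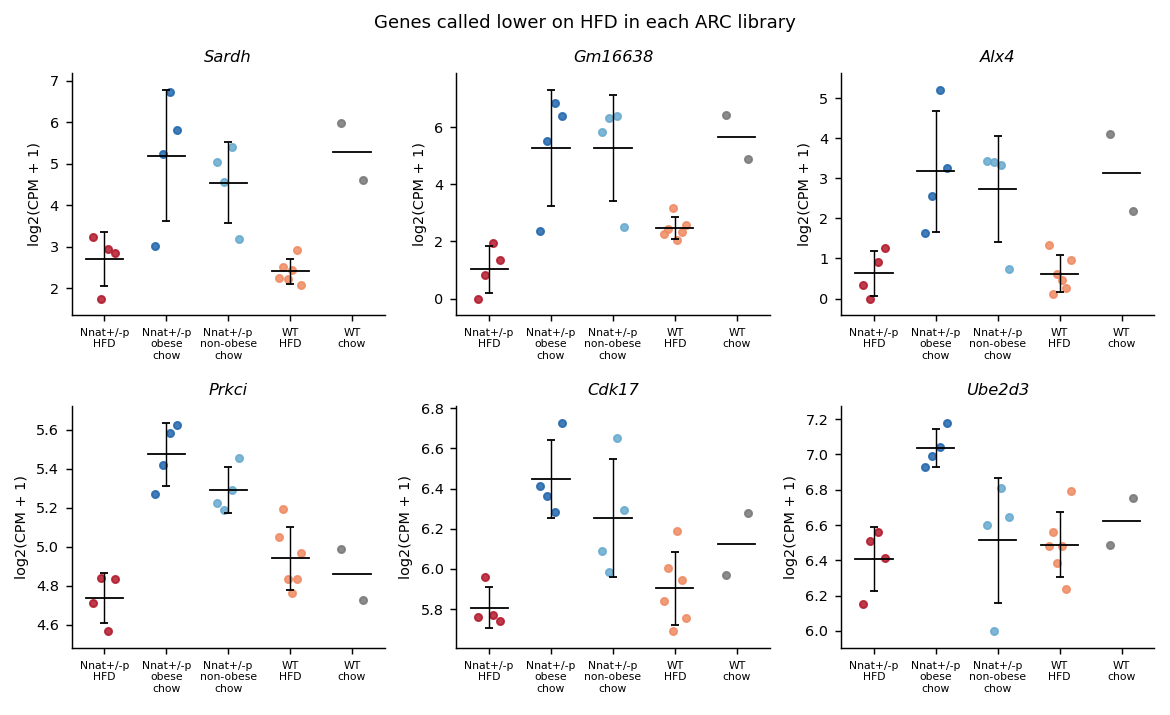
Log2(CPM + 1) of 6 genes called lower on HFD (y axes, which differ in range and mostly do not start at 0) in each ARC library by genotype and diet (x axis), with points for libraries, a line at the mean and bars of 1 SD for groups over 2. Sardh, Gm16638 and Alx4 are low in the HFD libraries of both genotypes with a wide spread on chow, and Prkci, Cdk17 and Ube2d3 fell by 0.76, 0.66 and 0.63 with a narrow spread.

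A second set fell by less and with little spread. Prkci, an atypical protein kinase C, stood at 25.2, 27.6, 22.7 and 27.5 CPM on HFD and at 37.6, 41.7, 46.9 and 48.3 CPM on obese chow (-0.76 ± 0.17, adjusted p = 0.0743). Cdk17, a cyclin-dependent kinase of neurons, stood at 53.2, 61.2, 53.5 and 52.5 CPM against 84.1, 81.4, 76.8 and 105 CPM (-0.66 ± 0.17, adjusted p = 0.126). Ube2d3, a ubiquitin-conjugating enzyme, stood at 70.2, 90, 93.5 and 84.2 CPM against 121, 126, 131 and 144 CPM (-0.63 ± 0.17, adjusted p = 0.137). None of them overlapped. Without library 51, Prkci (-0.79, adjusted p = 0.147) and Cdk17 (-0.71, adjusted p = 0.212) kept their calls, and Ube2d3 (-0.66, adjusted p = 0.265) did not. Prkci stood at 25.5 and 30.8 CPM in WT mice on chow and at 26.2 to 35.6 CPM in WT mice on HFD.

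The intergenic RNA 2900097C17Rik (-0.64 ± 0.17), the RNA-binding protein Celf2 (-0.58 ± 0.17), the cullin adaptor Klhl2 (-0.66 ± 0.19) and the survival factor Mcl1 (-0.69 ± 0.21) also fell, with adjusted p of 0.129, 0.207, 0.191 and 0.209 and no overlap. Without library 51 they were not called, with adjusted p of 0.38, 0.358, 0.471 and 0.502. Casr, the calcium-sensing receptor, stood at 0, 0, 0.655 and 0.139 CPM against 3.69, 1.57, 5.89 and 1.00 CPM (-3.67 ± 1.12, adjusted p = 0.229, and 0.508 without library 51). Of the 33 genes called lower, 25 did not overlap between the groups (1.96% of all genes did not in this direction), and of the 42 coding genes called higher 18 did not (2.13%). The calls rest on the same libraries, so nothing is read from these counts.

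The same contrast was made in the PVN, with HFD libraries 29, 30 and 31 and obese chow libraries 16, 17, 20 and 21, by labelled weight mostly of the same mice. It called 46 of 17576 genes (0.262%), 41 of them lower. These calls rested on few libraries, since edgeR called none without library 20, 29 or 30, 1 without library 31 and 130 without library 16. Of the 33 genes lower in the ARC, all 33 were tested in the PVN, 27 had the same sign and 8 were called there, and 4 had all HFD libraries below all chow libraries (2.88% of all genes did). Sardh stood at 8.02, 3.73 and 2.68 CPM on HFD and at 2.84, 87.1, 314 and 114 CPM on obese chow in the PVN (-4.74, adjusted p = 0.144), and Gm16638 at 7.59, 9.91 and 4.70 CPM against 7.30, 107, 436 and 129 CPM (-4.51, adjusted p = 0.144). Library 16 was low for both, and its labelled weight of 38.8 g is that of ARC library 36, which was low as well. Alx4, Gm47791, Olfr411, Fam83d and Tgfb1 were also called lower in the PVN.

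Of the 112 small and structural RNAs called in the ARC, 90 were tested in the PVN, 39 had the same sign, 9 of these had an unadjusted p under 0.05, 10 had all HFD libraries above all chow libraries (3.77% of all genes did) and 1 was called. That was Snord17, at 24.6, 21.7 and 37.4 CPM against 10.1, 2.57, 8.18 and 5.28 CPM (2.10, adjusted p = 0.217). Snora21, Gm24407 and Gm24265 were among the 9, with PVN log2 fold changes of 1.93, 1.70 and 1.59 and edgeR adjusted p of 0.295, 0.487 and 0.547. Gm42418 took 2.66 to 3.67% of counts on HFD and 1.91 to 9.43% on obese chow in the PVN. Of the 42 coding genes called higher in the ARC, 39 were tested and 17 had the same sign.

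The difference between the nuclei was tested directly and was called for 51 of 21400 genes (0.238%), 18 of them small and structural RNAs. CT010467.1 differed by 2.62 ± 0.41 (adjusted p = 0.000504), with 37.2 to 38.8 CPM on HFD and 39.7 to 67.3 CPM on obese chow in the PVN. Cdk17 differed by -1.04 ± 0.28 (adjusted p = 0.227), since its PVN levels were 79.3, 64.3 and 62.8 CPM against 64.6, 50.3, 50.4 and 49.2 CPM. For Snord17 the difference was -0.07 ± 0.65 (adjusted p = 1.00), for Sst -0.57 ± 0.60, for Cartpt 0.83 ± 0.55 and for Tbx3 1.73 ± 0.69, none of them called. That fit took no account of mice that gave both nuclei. With the mouse as a block, matched by labelled weight (2 HFD and 4 obese chow mice, 15 mice in all), edgeR called 449 genes and limma voom 2, CT010467.1 and Osbp2. Cartpt (1.17 ± 0.35, adjusted p = 0.0757) and Tbx3 (1.80 ± 0.57, adjusted p = 0.122) were called in the blocked edgeR fit and not in limma voom (adjusted p = 0.385 and 0.498), and Sst was called in neither (0.643 and 0.942). In the blocked edgeR fit the prior degrees of freedom were infinite, so genes of like abundance shared 1 spread. Leaving out library 51, 6 genes differed between the nuclei, leaving out PVN library 29 or 30, 1 did, and leaving out library 53, 110 did.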

How the data were processed

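Total RNA of laser-captured hypothalamic nuclei (20-µm sections) was sequenced in a library for each sample, and by labelled weight most ARC and PVN libraries come from the same mice. The authors deposited raw counts per gene in 1 table for the ARC and 1 for the PVN. The submitters' processing notes name STAR 2.5.0a and GRCm38. The counting tool, its annotation and its strand setting are not given in the sources used here. Replicates were not pooled, and 0 columns without a sample were used. Groups came from the labels, and p-values measure the spread between libraries of a group.

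All male ARC groups were fitted together with edgeR 4.0.16 (R 4.3.3) by the quasi-likelihood test, after filterByExpr (minimum count 10), TMM scaling and a prior count of 2, and HFD was contrasted with obese chow in Nnat+/-p mice. Benjamini-Hochberg adjusted p under 0.25 was the threshold. A WT chow ARC library with 271324 counts, under 25% of the median, was left out. The PVN was fitted likewise, and the nucleus difference as an interaction, also with the mouse as a block (mice matched by group and labelled weight, a setting chosen after seeing the data). DESeq2 1.42.0, limma 3.58.1 (voom) and the other settings were alternatives. The fit was tested on simulated data with known changes. Precision is limited by depth and by 4 libraries a group.

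The members and gene lists were chosen with earlier results of these data known. Genes named were Nnat, by p the leading 12 calls that rose and leading 12 that fell, for each list its leading member by p above and below 0 and the members that define it, and Agrp, Npy, Pomc, Cartpt, Tbx3, Gfap and Lepr. Other genes, among them Efna5, Rab3b, Lars2, Gm42418, Rny1, Rny3, Otp, Kif21a and Ube2d3, were named after their values were seen. Some list members that this rule names are not reported here.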

Additional observations from a re-analysis of the deposited data

Results flagged for a closer look

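Within the 2 ARC groups, 21 of 260 sets of 4 values had 1 library far from the other 3, where chance flags about 1 in 20. On HFD these were library 50 for Rnu11 (86.2 CPM) and Dele1 (21.0 CPM), library 51 for Kif21a (5990 CPM), Gm30806 (160 CPM), Cdk17 (61.2 CPM), Sqle (19.7 CPM) and Fam83d (1.58 CPM), and library 52 for Osbp2 (1820 CPM), Gm47791 (0.218 CPM) and body weight (38.2 g). Library 53 stood apart for mt-Rnr1 (67800 CPM), mt-Nd2 (1240 CPM), Gpr101 (45.2 CPM), Arc (4.72 CPM) and Nmu (0.139 CPM). On obese chow they were library 36 for Sst (81.7 CPM), Lepr (37.9 CPM) and mt-Tf (1.42 CPM), library 41 for Cartpt (66.3 CPM) and Igsf1 (64.4 CPM), and library 42 for Chsy3 (0.401 CPM).

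The HFD change differed between ARC and PVN, by edgeR's interaction test, for 10 of the 129 genes tested by name. Over all genes, 51 of 21400 differed (0.238%). Many of the names were chosen by their ARC values, so nothing is read from the count among them. Leaving out PVN library 29 or 30 left 1 call over all genes, and leaving out library 51 left 6. The ARC change minus the PVN change was 2.62 for CT010467.1, 3.10 for Gm42418, 3.09 for Lars2, 2.87 for Cdr2, 3.44 for Mcam and 4.03 for Gm15564 on the log2 scale. It was 5.94 for Gm25257, 4.02 for Gm25414, 6.98 for Osbp2 and -1.04 for Cdk17.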

How the results depend on the processing

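The ARC contrast called 200 genes, 112 of them small and structural RNAs and 72 protein-coding, and among list members 15 higher and 7 lower. In that order the counts were 358, 152, 167, 23 and 12 with DESeq2, 40, 10, 29, 6 and 6 with limma voom, 482, 188, 229, 38 and 18 without a filter on low counts, 44, 38, 5, 2 and 0 with all labelled libraries, 60, 42, 16, 8 and 0 without the libraries of conflicting weights, 373, 158, 174 and 23 higher with libraries 39 and 40 summed, and 18, 15, 2, 1 and 0 at an adjusted p under 0.05. Settings chosen after seeing the data gave 5, 3, 1, 0 and 0 with Gm42418 as a covariate, 4, 2, 1, 0 and 0 without libraries 50 and 51, 390, 162, 187 and 26 higher without libraries 39 and 40, and 5 genes and no list member among protein-coding genes only. Leaving out 1 library gave 13 to 544 genes, 8 to 197 small and structural, 4 to 297 protein-coding, and 0 to 37 list members higher and 0 to 17 lower. With RLE size factors 222 were called, and with only the compared groups 176. The share of calls that were higher was 83.5%, against 52.5% with voom, 40.0% among protein-coding genes only and 72.6% without a filter.

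The PVN contrast called 46 genes, 422 with DESeq2, 258 without a filter, 17 among protein-coding genes, 1 without conflicting weights, 0 at an adjusted p under 0.05 (edgeR, 1323 at an unadjusted p under 0.05), and 0 to 130 without 1 library. The nucleus difference called 51, then 210, 243, 8, 1 and 6 under the same settings, and 1 to 110 without 1 library. Signs turned with the Gm42418 covariate for Cdr2 (-0.23), Gm15564 (-0.27), Gm30806 (-2.58), Mcam (-0.19), Myrf (-0.13), mt-Rnr2 (0.053) and n-R5-8s1 (-0.082). Gm42418 stood at -0.043 there, but it was its own covariate, so a value near 0 was fixed in advance. They turned for Kif21a without library 51 (-0.27), without libraries 50 and 51 (-0.13) and without conflicting weights (-0.26), for Lepr without library 36 (0.18), Osbp2 without library 52 (-0.087), Nr5a1 without libraries 50 and 51 (0.14) and Nnat with voom (0.21). For Kif21a, Osbp2 and Lepr the turn followed 1 high library each, library 51 (5990 CPM), library 52 (1820 CPM) and library 36 (37.9 CPM). Why those libraries were high was not tested, nor was the cause of the other turns. Over the libraries left out in turn, the highest fold change was 3.063 for Kif21a and 5.518 for Osbp2, and the lowest for Lepr was -1.90. Of 69 called genes named, 61 kept their sign throughout, and CT010467.1 and Gm24265 kept their call. With a replicate block by labelled weight, chosen after seeing the data, the nucleus difference called 449 with edgeR (38.1% higher, against 84.3%) and 2 with limma voom. Within the ARC, no paired analysis was possible because each library compared has its own number.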

Other observations

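Library 32 is labelled as ARC of a Nnat+/-p mouse on HFD, but its counts stand in the PVN table, so it entered no comparison. It held 7348988 counts, and its CPM are of its own total. Oxt was at 584 CPM, Avp at 277 CPM, Otp at 208 CPM, Sim1, a factor of PVN neurons, at 159 CPM, Trh at 129 CPM and Crh at 105 CPM. In the 8 ARC libraries compared, Sim1 ran from 0 to 6.08 CPM and Crh from 0 to 0.749 CPM, and in the 7 PVN libraries Sim1 ran from 99.8 to 206 CPM and Crh from 27.0 to 84.7 CPM. Agrp was at 0.816 CPM, Pomc at 2.45 CPM and Nnat at 4.76 CPM in library 32, and Npy had no count.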
